A study of Mus musculus with 6 samples.

Results

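Potassium channel genes were compared between arcuate hypothalamus of control mice and of POMCDicerKO mice. The members were the probe sets whose single gene symbol in the array annotation consists of Kcn, further letters and a number, without Kcne2, Kcnj8, Kcnq1 and Kcnk9, and with Abcc8 added. This gave 157 of the 45037 probe sets, for 78 of 18193 named genes. The rule reads gene names, and it was set with earlier results of these data known. POMCDicerKO mice lack Dicer, the enzyme that cuts precursor hairpins into mature microRNAs, in their Pomc-expressing cells. Pomc is the precursor of the melanocortin peptides. Each group held 3 arrays. All mice were 2 weeks old, on a mixed C57Bl/6J, FVB/N and 129 background, and the tissue was a microdissection. How the deletion was driven, which alleles the controls carried, the sex of the mice and any pooling of animals are not stated in the labels. P values therefore measure the spread between these samples.

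Potassium channels let potassium leave or enter a cell and so set its resting potential, the shape of its spikes and its response to transmitters and nutrients. In arcuate neurons, ATP-sensitive channels close when the cell has ample fuel, and channels gated by G proteins open when inhibitory receptors are occupied. Astrocytes use inward rectifiers to clear potassium that active neurons release. Pore-forming subunits fall into voltage-gated, calcium- or sodium-activated, inwardly rectifying and 2-pore-domain families, and auxiliary subunits change their gating and transport to the membrane.

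No potassium channel gene differed between the groups past the test. Of 157 member probe sets, 0 passed limma's Benjamini-Hochberg threshold of 0.05, against 0% of all probe sets, and each member had an adjusted p = 1. At an unadjusted p under 0.05 there were 3 member probe sets (1.91%), against 2.44% of all probe sets. The count was 9 (5.73%) without control 1, against 4.61% of all probe sets in the same fit. It was 8 without control 3 (5.1% against 2.98%) and 7 without POMCDicerKO 1 (4.46% against 2.21%). It was 4 without control 2 (2.55% against 1.94%), 4 without POMCDicerKO 2 (2.55% against 2.62%) and 3 without POMCDicerKO 3 (1.91% against 3.33%). Without controls 1 and 2 it was 8 (5.1% against 4.15%). With the probe set of highest mean standing for each gene, 33 of the 78 genes were at a higher mean in POMCDicerKO and 45 at a lower mean. The median log2 difference was -0.014, beside -0.0099 over all genes. Every POMCDicerKO value was above every control value for 2 of the 78 genes, Kcnk6 and Kcnab3, where 2.58% of all genes had such groups. Every value was below for 1, Kcna3, where 3.86% of all genes did. Separate groups in either direction were thus found for 3.85% of the members and 6.44% of all genes. Of these 3 members, Kcna3 and Kcnab3 had low mean log2 levels over all arrays, at 5.93 and 5.23.

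The intervals bound the size of a difference in this tissue. The 95% interval of the difference lay within 1.5-fold either way for 75 of the 78 genes (96.2%, against 97.2% of all genes). It lay within 2-fold for all 78. The 3 genes with wider intervals were Kcna1, Kcna5 and Kcnj13. These are intervals for whole dissected tissue, in which POMC cells are a small part, and in such samples fewer cells of a type and less RNA per cell cannot be told apart. Of the 78 genes, 51 had a mean log2 level of at least 6. The other 27 lay nearer the low end of the scale, where differences are compressed.

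**Figure D1:**
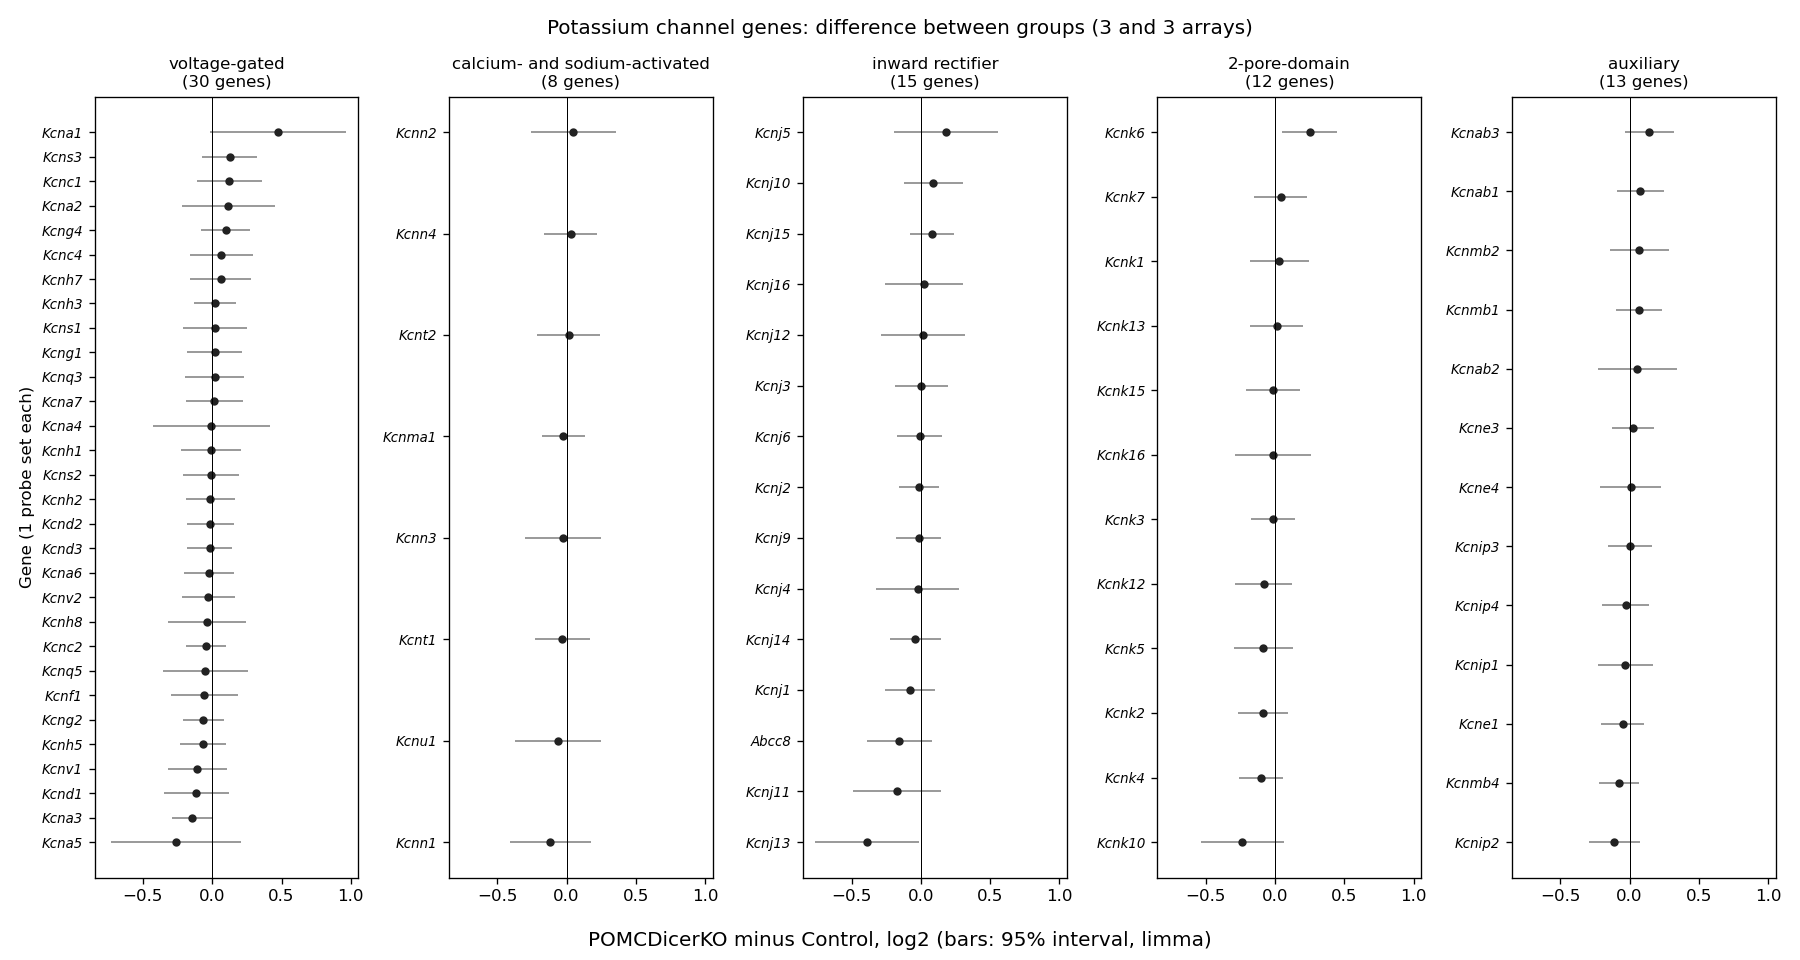
Difference between POMCDicerKO and control for each of the 78 genes, on the log2 scale (x axis), in 5 families. Points are differences of group means over 3 arrays each, bars are 95% intervals from limma. Most points lie close to 0, with Kcna1 at 0.47 at the right and Kcnj13 at -0.39 at the left.

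Upstream sequence was at hand in RefSeq windows of assembly GRCm38.p6 for 59 of the 78 genes, in 83 windows. The 250 bases before the transcript start are shown for Kcna3, the gene with separate groups at lower values, and for Kcnj13, the gene with the most negative difference. Capitals mark matches, on either strand, to the TATA box letters TATAAA, the GC box letters GGGCGG, the promoter box CCAAT and the cyclic AMP response element TGACGTCA. No match overlaps another in these windows. The Kcna3 window is chr3:107035912-107036161 on the plus strand, and the Kcnj13 window is chr1:87394730-87394979 on the minus strand.
Kcna3: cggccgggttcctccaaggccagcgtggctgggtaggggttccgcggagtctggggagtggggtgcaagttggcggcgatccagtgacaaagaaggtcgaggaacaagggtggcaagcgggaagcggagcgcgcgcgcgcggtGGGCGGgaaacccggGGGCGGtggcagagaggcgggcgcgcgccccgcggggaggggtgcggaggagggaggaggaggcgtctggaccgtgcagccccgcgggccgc
Kcnj13: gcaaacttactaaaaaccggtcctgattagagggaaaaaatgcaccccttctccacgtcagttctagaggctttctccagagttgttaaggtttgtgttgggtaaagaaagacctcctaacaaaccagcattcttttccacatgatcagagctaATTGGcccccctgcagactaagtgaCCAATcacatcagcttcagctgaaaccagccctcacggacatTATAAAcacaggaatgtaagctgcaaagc

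The 2 windows differ in composition. The Kcna3 window held 31 CpG dinucleotides at 74.4% G and C, and 2 matches to GGGCGG. The Kcnj13 window held 3 CpG dinucleotides at 45.2% G and C, with TATAAA starting 29 bases before the transcript start and 2 matches to CCAAT. Among the 83 potassium channel windows, GGGCGG was in 44.6% and TATAAA in 3.61%, against 32.7% and 12.4% of all 32851 windows. CCAAT was in 31.3% against 33.8%, and TGACGTCA in 0 of 83 windows against 1.55%. A match is a run of letters and does not show that a factor binds there.

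Voltage-gated subunits, many of which repolarise the membrane during and after a spike, were the largest family, with 30 genes on 64 probe sets. Of these genes 12 were at a higher mean in POMCDicerKO and 18 at a lower mean, with a median log2 difference of -0.012. Kcnd2 and Kcnd3, whose subunits carry the fast transient current of cell bodies and dendrites, were named for the highest mean signal of the family, a rank of probe sets that does not compare amounts of transcript. On 1422835_at, Kcnd2 read 10.71, 10.74 and 10.84 in controls 1 to 3 and 10.80, 10.79 and 10.65 in POMCDicerKO 1 to 3. The 6 values interleaved, with a log2 difference of -0.014 and a standard error of 0.073. Kcnd3 on 1435720_at read 10.58, 10.55 and 10.57 in controls and 10.44, 10.58 and 10.63 in POMCDicerKO. Its difference was -0.017 (SE 0.070), and its controls lay closer together than its POMCDicerKO values.

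Kcna3, whose subunit is found in neurons, lymphocytes and microglia, was lower on each POMCDicerKO array than on any control. On its 1 probe set, 1423018_at, it read 6.02, 5.99 and 6.00 in controls and 5.91, 5.80 and 5.87 in POMCDicerKO. The means were 6.00 ± 0.014 and 5.86 ± 0.058 (SD, n = 3 each), a log2 difference of -0.14 (SE 0.063, 1.11-fold). The two-sided exact permutation p was 0.1, the smallest that 3 against 3 samples can give. Single arrays left out gave -0.11 to -0.17. Summed microglial markers were at a log2 level of 12.26 to 12.43 in controls and 12.46 to 12.48 in POMCDicerKO, and 9 of the 10 were at a higher mean. The part of microglia in the Kcna3 values was not tested.

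Kcna1 had the most positive difference of the 78 genes, and was named for it after its values were seen. Its subunit forms low-threshold channels of axons, which in myelinated fibres sit beside the nodes. On 1417416_at it read 9.17, 8.41 and 9.19 in controls and 9.52, 9.15 and 9.52 in POMCDicerKO. The groups overlapped, because POMCDicerKO 2 fell below controls 1 and 3. The means were 8.92 ± 0.44 and 9.40 ± 0.21 (SD, n = 3 each), a log2 difference of 0.47 with a standard error of 0.21, and the two-sided exact permutation p was 0.3. Control 2 was the lowest array, and without it the difference was 0.22.

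The other Kcna1 probe sets showed the same array as the low one where the signal was well up the scale. Probe set 1455785_at read 8.90, 8.58 and 9.06 in controls and 9.40, 8.89 and 9.26 in POMCDicerKO, a difference of 0.34 (SE 0.16). Probe set 1437230_at read 6.76, 5.64 and 6.76 in controls and 6.92, 6.54 and 6.76 in POMCDicerKO, a difference of 0.35 (SE 0.29). Control 2 was lowest on both, and without it the second difference was -0.020. On 1442413_at, with all 6 values between 4.68 and 4.92, control 2 was instead the highest and the difference was 0.067. Probe sets of 1 gene share the arrays and are not replicates of a condition.

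Markers of neighbouring tissue were set beside Kcna1. Control 2 was also the lowest array for summed lateral hypothalamic markers, at a log2 level of 11.12, where controls 1 and 3 were at 12.81 and 13.20. POMCDicerKO 1 was the highest for them, at 13.49, and shared the highest Kcna1 value. All 4 of these markers were at a higher mean in POMCDicerKO, by 0.033 to 0.56, with sums of 11.53 to 13.49 against 11.12 to 13.20. Pmch, which made up most of that sum, was at 0.057 (SE 0.63). All 11 measured myelin markers were at a higher mean as well, with summed levels of 15.11 to 15.53 against 14.996 to 15.12. Their part in the Kcna1 values was not tested. Kcna2, the usual axonal partner of Kcna1, had differences of 0.12 on 1440759_at and 0.18 on 1439872_at, with standard errors of 0.14 and 0.099, and control 2 held the lowest value on the first only.

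A pair of relatives of Kcna1 varied between arrays with overlapping groups, and were picked for their spread. Kcna5 on 1417680_at read 8.55, 8.65 and 8.998 in controls and 8.02, 8.79 and 8.60 in POMCDicerKO, where array 1 was lowest. Kcna4 on 1438613_at read 7.25, 7.003 and 6.95 in controls and 7.43, 7.08 and 6.67 in POMCDicerKO, whose arrays 1 and 3 held the highest and the lowest value. The log2 difference was -0.26 (SE 0.20) for Kcna5 and -0.0057 (SE 0.18) for Kcna4. The limma interval for Kcna5 ran from -0.73 to 0.21, so a difference is not excluded. The residual SDs of Kcna5 and Kcna4, 0.33 and 0.29, followed that of Kcna1, 0.35, as the highest of the 78 genes. The median residual SD was 0.11 over the 78 genes and 0.099 over all genes. Kcnq3, a subunit of the channel that acetylcholine closes to raise excitability, was at 0.017 (SE 0.091) on 1435957_at.

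**Figure D2:**
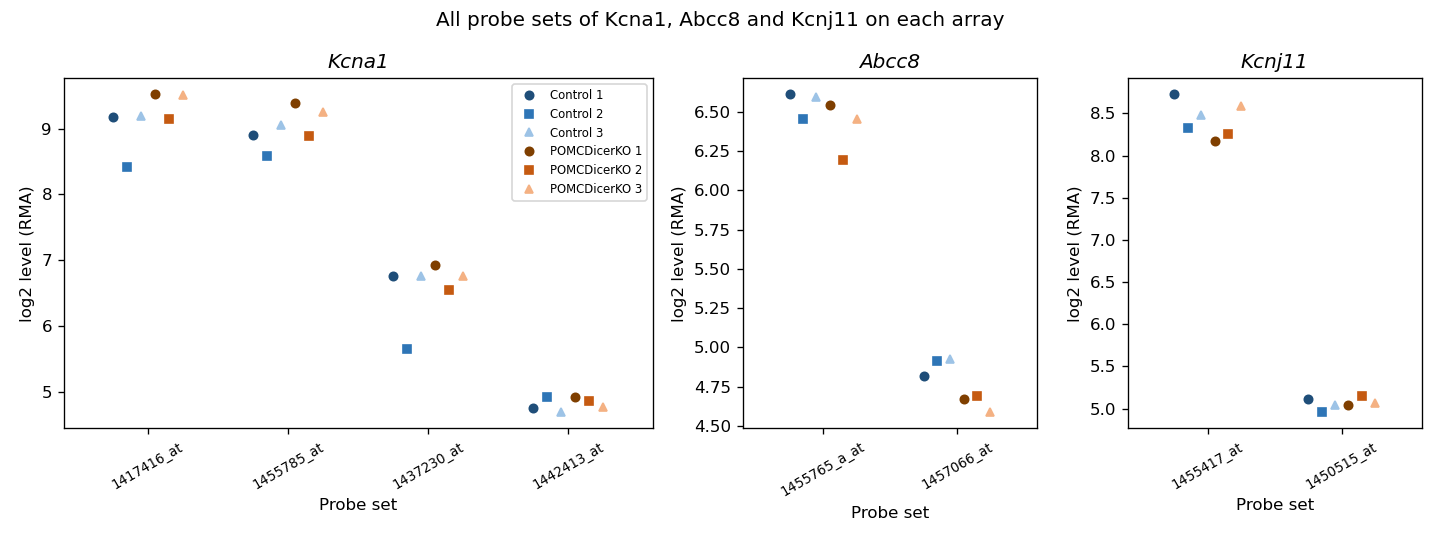
Log2 level (y axis) of every probe set of Kcna1, Abcc8 and Kcnj11 (x axis) on the 6 arrays, 1 symbol per array. Control 2 is the lowest point for 3 of the 4 Kcna1 probe sets, and the groups separate only for Abcc8 1457066_at.

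Inward rectifiers and Abcc8 made up 15 genes on 32 probe sets, with 6 at a higher and 9 at a lower mean and a median log2 difference of -0.014. Kcnj11 and Abcc8 encode the pore and the sulphonylurea receptor of the ATP-sensitive channel, through which POMC neurons sense glucose. They are next to each other on chromosome 7. On 1455417_at, Kcnj11 read 8.73, 8.32 and 8.48 in controls and 8.17, 8.25 and 8.59 in POMCDicerKO. Its groups overlapped, with a difference of -0.17 (SE 0.14) and a two-sided exact permutation p of 0.4. The difference was -0.066 without control 1 and -0.30 without POMCDicerKO 3. The other probe set, 1450515_at, was at 0.050 (SE 0.070).

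Abcc8 was measured by 2 probe sets of unlike strength. On 1455765_a_at it read 6.61, 6.46 and 6.60 in controls and 6.54, 6.20 and 6.46 in POMCDicerKO, a difference of -0.16 (SE 0.10). Its groups overlapped, and without POMCDicerKO 2, the lowest array, the difference was -0.055. On 1457066_at it read 4.82, 4.91 and 4.93 in controls and 4.67, 4.69 and 4.59 in POMCDicerKO. The groups were separate there, with means of 4.89 ± 0.058 and 4.65 ± 0.055 (SD, n = 3 each), and the log2 difference of -0.24 had a standard error of 0.067. It had the smallest unadjusted p of the 157 member probe sets, with an exact permutation p of 0.1. Single arrays left out gave -0.21 to -0.27. A mean of 4.77 over all arrays is low on this scale.

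POMC neuron markers ran lower beside these values. All 4 measured ones (of 5 listed) were at a lower mean in POMCDicerKO, and their summed log2 level was 11.46 to 11.69 against 11.77 to 12.17 in controls. Pomc itself read 9.94, 10.87 and 9.76 in controls and 9.35, 9.71 and 9.43 in POMCDicerKO. Control 2, the highest for Pomc, was not the highest for Kcnj11 or for Abcc8 1455765_a_at. The part of POMC cell content in the Abcc8 and Kcnj11 values was not tested.

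Opioid and GABA receptors silence neurons through channels that G proteins open. Of these channels, Kcnj3, Kcnj6 and Kcnj9 gave differences close to 0 on their probe sets of highest mean. Kcnj3 on 1455374_at read 8.84, 8.61 and 8.78 in controls and 8.77, 8.80 and 8.67 in POMCDicerKO, with a difference of 0.004 (SE 0.082). Kcnj6 on 1425044_at read 5.66, 5.73 and 5.68 in controls and 5.58, 5.73 and 5.73 in POMCDicerKO, with a difference of -0.008 (SE 0.070). None of the 5 Kcnj6 probe sets reached a mean of 6, so this difference may be compressed. Kcnj9 on 1428602_at read 7.85, 7.73 and 7.79 in controls and 7.72, 7.74 and 7.86 in POMCDicerKO, with a difference of -0.017 (SE 0.071). The 95% interval ran from -0.19 to 0.19 for Kcnj3, from -0.17 to 0.15 for Kcnj6 and from -0.18 to 0.15 for Kcnj9. All other Kcnj9 probe sets were at a higher mean in POMCDicerKO, with overlapping groups. The means were 6.80 against 6.70 in controls on 1450712_at, 6.17 against 6.10 on 1433029_at and 4.61 against 4.41 on 1426115_a_at. Kcnj5, whose channel G proteins also open, was at 0.18 (SE 0.16) on 1441590_at. There POMCDicerKO 2 alone read 7.68 and the other arrays 7.03 to 7.29. Without that array the difference was -0.0037.

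Kcnj10, the main inward rectifier of astrocytes and also made by oligodendrocytes, was named for its mean signal. On 1419601_at it read 10.71, 10.73 and 10.65 in controls and 10.96, 10.75 and 10.65 in POMCDicerKO. Array 1 of POMCDicerKO stood above the other 5, and the difference of 0.090 (SE 0.091) was 0.001 without it. That array was also the highest for myelin markers, at a summed log2 level of 15.53, and for astrocyte markers, at 15.21. Astrocyte markers were otherwise at 15.13 to 15.16 in controls and 15.14 to 15.18 on the other POMCDicerKO arrays, with 6 of 10 at a higher mean, and their part in this value was not tested. Kcnj16, whose subunit joins that of Kcnj10, was at 0.022 (SE 0.12) on 1435094_at.

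Kcnj13 had the most negative difference of the 78 genes, at a low mean log2 level of 5.28 over all arrays. Its channel is abundant in the choroid plexus and is regulated by the melanocortin receptor of hypothalamic neurons. On its 1 probe set, 1456418_at, it read 5.40, 5.83 and 5.19 in controls and 5.21, 4.91 and 5.14 in POMCDicerKO. The groups overlapped, since control 3 fell below POMCDicerKO 1. The means were 5.47 ± 0.32 and 5.09 ± 0.16 (SD, n = 3 each), a log2 difference of -0.39 with a standard error of 0.16, and the two-sided exact permutation p was 0.2. Without control 2 the difference was -0.21, and with control 3 as the sole control it was -0.10.

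Meningeal and choroid plexus markers were set beside Kcnj13. All 11 meningeal markers were at a lower mean in POMCDicerKO, and their summed log2 level was 13.91, 13.74 and 11.36 in controls 1 to 3 and 10.41 to 11.53 in POMCDicerKO. Controls 1 and 2 thus held the highest values of both Kcnj13 and the meningeal sum. The choroid plexus markers differed among themselves, with 4 of 6 at a lower mean. Their sum was 11.24, 9.95 and 10.47 in controls and 10.61, 11.63 and 9.19 in POMCDicerKO, so POMCDicerKO 2, the highest, held the lowest Kcnj13 value. Ttr, the transthyretin gene, ranged from 7.20 to 11.41 and made up most of that sum. Kl, the klotho gene, was lower on each POMCDicerKO array, at 5.37, 5.62 and 5.40 against 5.72, 5.90 and 5.80 in controls. Folr1, a folate receptor gene, was highest on control 2, at 6.52, and lay at 5.92 to 6.16 on the other arrays. Kcnj13 and Kl were highest on control 2 as well, whereas Ttr, Otx2, Clic6 and Aqp1 were not. Otx2 was lowest on control 2, at 3.47, and Clic6 was highest on control 3, at 8.34. Clic6 and Aqp1 were at a higher mean in POMCDicerKO, by 0.066 and 0.054. The part of these tissues in the Kcnj13 difference was not tested.

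**Figure D3:**
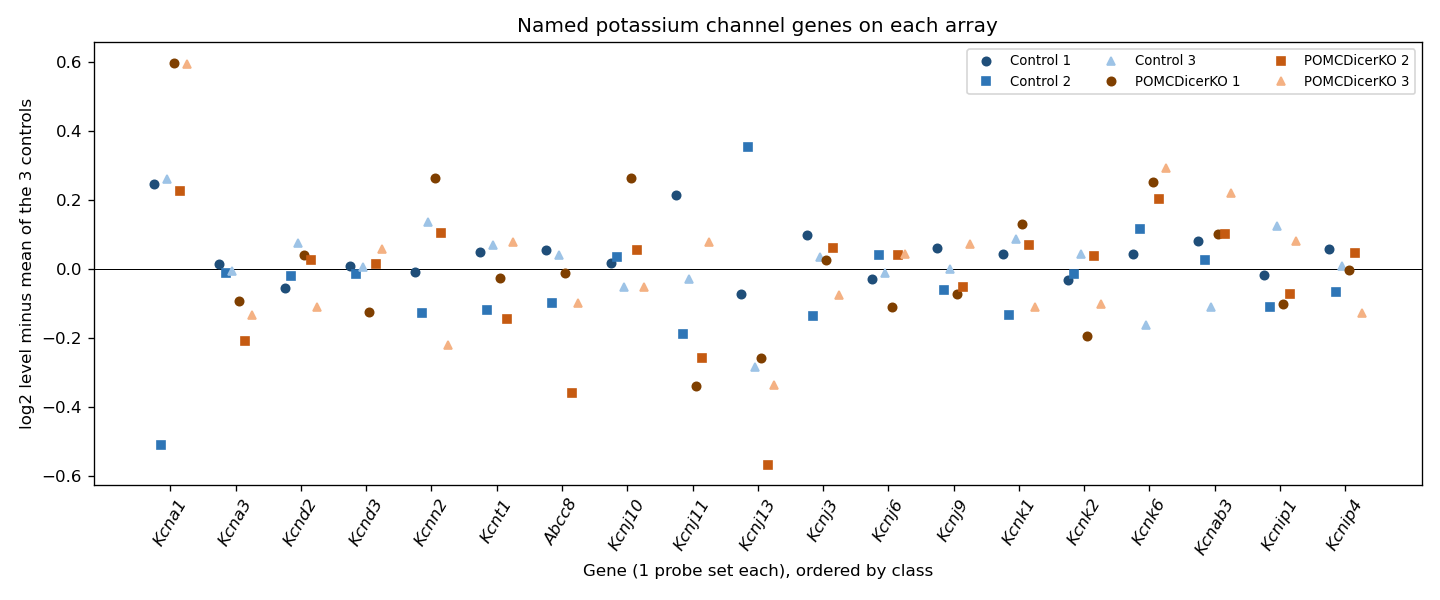
Log2 level minus the mean of the 3 controls (y axis) for the 19 named genes (x axis, ordered by family), 1 symbol per array. Kcna3, Kcnk6 and Kcnab3 have separate groups, whereas the wide spread of Kcna1 and Kcnj13 includes the control arrays.

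Channels with 2 pore domains, which pass the resting leak of potassium, gave 12 genes on 18 probe sets, 4 at a higher and 8 at a lower mean, with a median log2 difference of -0.017. Kcnk6, known from macrophages and vessels, was higher on each POMCDicerKO array than on any control. On 1435342_at it read 6.46, 6.53 and 6.25 in controls and 6.66, 6.62 and 6.70 in POMCDicerKO. The means were 6.41 ± 0.14 and 6.66 ± 0.045 (SD, n = 3 each), a log2 difference of 0.25 (SE 0.085, 1.19-fold), and the two-sided exact permutation p was 0.1. Control 3 was lowest. Without it the difference was 0.17, and with it as the only control 0.41. Control 3 was also the lowest array for the microglial sum, at 12.26, and for the endothelial sum, at 11.13, where all other arrays were at 12.43 to 12.48 and 11.18 to 11.37. Of the 8 endothelial markers 7 were at a higher mean, with sums of 11.21 to 11.37 against 11.13 to 11.19. The part of microglia and vessels in the Kcnk6 values was not tested. Kcnk13, a channel of microglia, was at 0.011 (SE 0.082) on 1424125_at.

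The leak channels named for their mean signal had overlapping groups. Kcnk1 on 1448690_at read 10.28, 10.10 and 10.32 in controls and 10.36, 10.30 and 10.12 in POMCDicerKO, with a difference of 0.030 (SE 0.092). Kcnk2, a channel opened by stretch and lipids, read 9.64, 9.66 and 9.72 in controls and 9.48, 9.71 and 9.57 in POMCDicerKO on 1449158_at, with a difference of -0.086 (SE 0.077). Kcnk1 was lowest on control 2 and Kcnk2 on POMCDicerKO 1. Kcnk10, a close relative of Kcnk2, was at -0.24 (SE 0.13) on 1438088_at, with 5.70 and 5.83 on POMCDicerKO 2 and 3 but 6.17 on POMCDicerKO 1, between controls 3 and 2.

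Many calcium- and sodium-activated channels slow firing after spikes. This family, with Kcnu1 placed in it by symbol, gave 8 genes on 16 probe sets, 3 at a higher and 5 at a lower mean. Their median log2 difference was -0.024, and the 8 differences ran from -0.12 to 0.050. Kcnn2, of the small-conductance channels opened by calcium, read 8.26, 8.14 and 8.41 in controls and 8.53, 8.37 and 8.05 in POMCDicerKO on 1448927_at. POMCDicerKO held both its highest and its lowest value, and the difference was 0.050 (SE 0.13). The sodium-activated channel gene Kcnt1 read 8.995, 8.83 and 9.02 in controls and 8.92, 8.80 and 9.02 in POMCDicerKO on 1439486_at, with a difference of -0.031 (SE 0.086). The large-conductance channel gene Kcnma1 was at -0.023 (SE 0.067) on 1425987_a_at. Of its 4 probe sets with a mean of at least 6, the other 3 were at a higher mean in POMCDicerKO.

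Auxiliary subunits gave 13 genes on 27 probe sets, 8 at a higher and 5 at a lower mean, with a median log2 difference of 0.007. Kcnip4 and Kcnip1 encode calcium-binding partners of the Kcnd channels. Kcnip4 on 1437631_at read 10.16, 10.03 and 10.11 in controls and 10.10, 10.14 and 9.97 in POMCDicerKO, with a difference of -0.029 (SE 0.073). Kcnip1 on 1448459_at read 9.72, 9.63 and 9.86 in controls and 9.64, 9.67 and 9.82 in POMCDicerKO, with a difference of -0.031 (SE 0.086). The other Kcnip1 probe sets with a mean of at least 6 went the other way, with overlapping groups. Their means were 8.63 in controls and 8.69 in POMCDicerKO on 1416785_at, and 6.94 and 7.18 on 1433156_at. Like Kcnd2 and Kcnd3, Kcnip4 and Kcnip1 had overlapping groups on the probe sets of highest mean.

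Kcnab3, a beta subunit of the Kcna channels, was the auxiliary gene with separate groups. On 1421790_a_at it read 5.24, 5.19 and 5.05 in controls and 5.26, 5.26 and 5.38 in POMCDicerKO. The difference of 0.14 had a standard error of 0.076, and the groups all but touched. It was 0.087 without control 3 and 0.25 with control 3 as the only control. Its other probe set, 1423950_at, was at 0.10 (SE 0.075) with overlapping groups. Kcnmb4, the brain beta subunit of the Kcnma1 channel, was at -0.075 (SE 0.062) on 1449471_at.

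Probe sets of the same gene often disagreed in sign where differences were small. Of the 78 genes, 46 had at least 2 probe sets, and 18 had at least 2 with a mean of 6 or more. Among those 18, the signs were alike for 9 and mixed for the other 9. The largest gap between such probe sets of a gene was 0.26, for Kcnip1, and 0 genes had differences of at least 0.2 in opposite directions. The members are spread over 19 chromosomes and form 10 pairs of adjacent protein-coding genes, among them Kcna3 and Kcna2 on chromosome 3 and Kcnj9 and Kcnj10 on chromosome 1. Of the first pair, Kcna3 was at -0.14 and Kcna2 at 0.12.

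The highest and the lowest of the 6 values of each gene were each counted for 1 array. Among the 51 genes with a mean of at least 6, control 2 was the lowest array for 15 (29.4%), against 15.4% of all 11742 such genes, and the highest for 13.7% against 28.5%. POMCDicerKO 1 was the highest for 14 of the 51 (27.5%), against 17.7%. Control 3 was the lowest for 3.92% against 12%. Over all 78 genes the shares lay nearer to those of all genes for the lowest array, at 21.8% against 15.7% for control 2 and 10.3% against 15.3% for control 3. POMCDicerKO 1 was the highest for 25.6% of the 78, against 15.5%. These shares describe the 6 arrays and were not tested. General neuronal markers, 7 of 10 at a higher mean in POMCDicerKO, had their lowest summed log2 level on control 2, at 15.13, and their highest on POMCDicerKO 1, at 15.24, in ranges of 15.13 to 15.19 for controls and 15.17 to 15.24 for POMCDicerKO. The part of neuronal content in the potassium channel values was not tested.

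**Figure D4:**
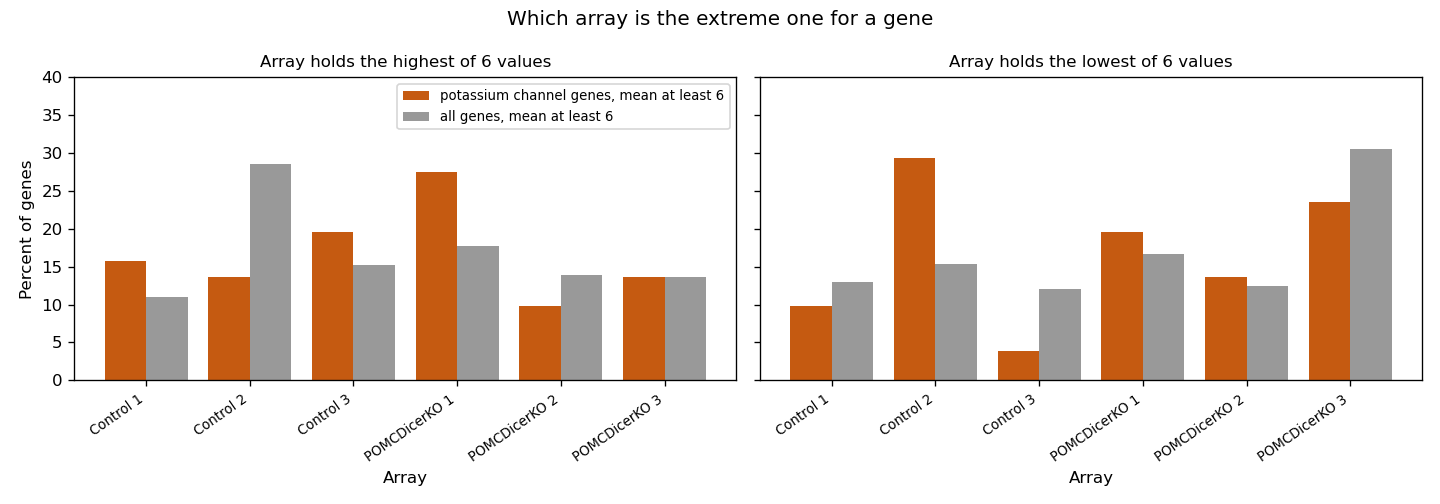
Percent of genes (y axis) for which each array (x axis) held the highest (left) or the lowest (right) of the 6 values, for the 51 potassium channel genes with a mean of at least 6 and for all 11742 such genes. Control 2 was the lowest array for 29.4% of the channel genes and 15.4% of all genes.

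Among other genes of potassium handling, of 26 listed, 21 were measured, 11 at a higher and 10 at a lower mean, with a median log2 difference of 0.009. None passed the adjusted threshold (0 by limma). An unadjusted p under 0.05 was found for 1 (4.76%, against 2.41% of all genes), and separate groups for 3 (14.3%, against 6.44%). Slc12a2, the sodium-potassium-chloride importer, was the gene with the small p and also had separate groups. It was at 0.20 (SE 0.082), with 10.65, 10.60 and 10.74 in controls and 10.9998, 10.77 and 10.81 in POMCDicerKO. Abcc9, the sulphonylurea receptor of vessel cells, had separate groups as well, at 0.20 (SE 0.11), as had Dpp6, a partner of the Kcnd channels, at -0.083 (SE 0.060). Slc12a5, the chloride exporter of mature neurons, was at 0.072 (SE 0.066). The sodium pump subunit Atp1b1 was at 0.041 (SE 0.065).

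Pomc and Cartpt, genes of arcuate neurons, read 9.35 to 10.87 and 9.81 to 10.44 on a scale of 3.05 to 14.35. The lateral hypothalamic marker Pmch read higher than Pomc on every array, at 10.91 to 13.22. These levels do not show where the dissection ended, and no other tissue was at hand for comparison. Profiles of the 6 arrays correlated at r = 0.994 to 0.997 over all probe sets, which are not independent replicates, and 0 arrays were identical. Controls 1 and 2 stood apart in meningeal markers, as given above. All 4 measured AgRP/NPY neuron markers were at a lower mean in POMCDicerKO, with sums of 11.41 to 12.39 against 12.26 to 12.76. Pituitary markers, 4 of 6 at a lower mean, had sums of 7.75 to 10.004 against 8.75 to 10.17. None of the 12 lists had a member past limma's adjusted threshold (0 of all probe sets, with 1098 at an unadjusted p under 0.05).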

How the data were processed

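RNA of 6 microdissections was hybridised to Affymetrix Mouse Genome 430 2.0 arrays, per the labels' protocols. The deposited values were log2 expression values, made by the authors with RMA in the affy package, per the submitters' processing notes. RMA normalises arrays by quantiles, so a shift shared by most transcripts was removed before deposit. Array medians lay at 6.02 to 6.05, and the number of arrays limits the precision. Groups came from sample titles.

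After 64 control probe sets were left out, 45037 were tested with limma 3.58.1 in R 4.3.3 (lmFit, eBayes), with Benjamini-Hochberg adjustment over all of them. Errors are limma's standard errors unless marked SD. For a single gene, a two-sided exact permutation of the group labels was added. Symbols came from the array annotation, updated through Entrez identifiers in RefSeq (GRCm38.p6; 34741 of 34945 found). Marker sums are log2 of summed linear levels.

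The members and lists were chosen with earlier results of these data known. The naming rule took Abcc8, Kcnj11, Kcnj3, Kcnj6 and Kcnj9, per family the 2 highest means and up to 3 genes without overlap, and probe sets with an unadjusted p under 0.05. Other genes are named for their role or after their values were seen. The script was tested on simulated data. Alternatives were median centring, a further quantile normalisation, a mean of at least 6, a trended robust prior, no moderation, a replicate block, 1 probe set per gene, the mean over probe sets, each array left out, and controls 1 and 2 left out.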

Additional observations from a re-analysis of the deposited data

How the results depend on the processing

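No member probe set passed the adjusted threshold under any alternative run. Over all probe sets the count was 1 with a trended robust prior, 1 without controls 1 and 2, and 0 to 2 with single arrays left out. The member count at an unadjusted p under 0.05, 3 as reported, was 8 without controls 1 and 2 (5.1% against 4.15%). With single arrays left out it was 3 to 9 (1.91% to 5.73%, against 1.94% to 4.61% of all probe sets). With a mean of at least 6 it was 1 of 78 probe sets. The share of all probe sets in that fit was not counted, so the 1 has no background here. With the replicate number as a block it was 5 (3.18%, against 3.1% of all probe sets in that fit). Deviations of same-numbered arrays correlated at 0.128, 0.0787 and 0.12, so the numbers were not taken as pairs, although all 6 arrays correlated best with their own number. Without controls 1 and 2 the voltage-gated median was 0.015. With the mean over probe sets the median of all members was 0.016 and that of the voltage-gated family 0.017. With single arrays left out the 2-pore-domain median ran from -0.077 to -0.0032. For these medians, and for the sign changes that follow, the cause was not tested. Kcnj3 turned to -0.0033 with median centring. Without controls 1 and 2 Kcnj6 turned to 0.0021, Kcnk1 to -0.057, Kcnn2 to -0.088, Kcnj3 to -0.032, Kcna1 1437230_at to -0.024, Kcna4 to 0.11, Kcnq3 to -0.084 and Atp1b1 to -0.013. With single arrays left out, differences of either sign were found for Kcnd2 (-0.042 to 0.035), Kcnd3 (-0.055 to 0.037), Kcnip1 (-0.086 to 0.032), Kcnip4 (-0.066 to 0.021), Kcnj3 (-0.063 to 0.054), Kcnj6 (-0.035 to 0.042), Kcnj9 (-0.061 to 0.013), Kcnk1 (-0.036 to 0.10), Kcnn2 (-0.058 to 0.19), Kcnt1 (-0.091 to 0.025), Kcna1 1437230_at (-0.020 to 0.54), Kcna2 1440759_at (-0.032 to 0.20), Kcna4 (-0.19 to 0.19), Kcnq3 (-0.079 to 0.067), Kcnj5 (-0.0037 to 0.32), Kcnj16 (-0.076 to 0.13), Kcnk13 (-0.049 to 0.069) and Kcnma1 (-0.062 to 0.0036). The other probe sets of potassium genes given with a difference kept their sign under every alternative that included them. Low signals, at the 27 genes with a mean under 6, limit what can be seen there.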
